A study of Mus musculus with 2 samples.

Results

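Ifitm1, Ifitm2, Ifitm3, Ifitm6, Bst2, Ly6a and Ly6e are interferon-induced genes whose products sit in cell membranes. They were chosen by symbol, as members of the interferon-induced transmembrane (IFITM) family, tetherin and the Ly6 family, and make up 7 of the 32285 features counted. Single-cell RNA sequencing with 10x Genomics 3′ chemistry was carried out on subcutaneous tumors of MC38, a mouse colon carcinoma line, grown in C57BL/6 mice. The tumors had received MSA-2, a small-molecule agonist of STING, or none. Each condition gave 1 library from the pooled tumors of 3 mice. The comparison asks how these genes differ between MSA-2-treated and untreated tumors in each kind of cell.

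The library labelled as the untreated negative control came, by the series design, from mice that received intratumoral saline vehicle with 10% DMSO. The other came from mice that received intratumoral MSA-2, with 3 injections given every 3 days to either group. The methods give an age of 6 to 8 weeks for mice of this tumor model, and call the cells sorted without naming a gate. Because each condition had 1 library, no difference was tested, no value has a replicate check, and pooling hides the spread between mice. The intervals given are 95% intervals and cover counting error only.

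The untreated library held 14386 barcodes and 198135335 unique molecular identifiers (UMIs), and the MSA-2 library held 14617 barcodes and 204387165 UMIs. After filtering and removal of called doublets, 13334 and 13393 cells remained, with a median of 8299 and 9271 UMIs per cell. The 2 libraries shared 53 barcode sequences, and 39 of these were kept in both. Cells were assigned to classes by the summed level of marker genes per cell, so a class is a range of cells and not a proven type. Levels are UMIs summed over a class and set relative to all UMIs of that sum (CPM).

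Cells were called marker-negative if they passed no marker gate and stayed under 40% of the thresholds for immune markers and most class markers. They made up 42.8% of kept untreated cells and 45.9% of kept MSA-2 cells (5705 and 6147 cells). The labels name the cell type as tumor cells, whereas the study's methods call the cells immune. In this class immune markers summed to 137.15 CPM untreated and 80.4 CPM after MSA-2. The epithelial markers summed to 1.92 and 1.47 CPM, with Krt18 at 0 UMIs in the untreated library and Cldn4 and Krt20 at 0 in the MSA-2 library. These cells are therefore called by their gate. Their clusters were nearly separate between the libraries. Clusters 2, 1 and 0 held 2559, 1703 and 1232 of the untreated cells, and clusters 4, 17 and 16 held 2725, 1641 and 1471 of the MSA-2 cells. A difference between the libraries in this class cannot be told apart from a difference between these cell states.

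Other gated classes, with untreated before MSA-2, were fibroblasts (235 and 618 cells), endothelial cells (60 and 79), macrophages (3510 and 962), Ly6c2 monocytes (816 and 1253), type 2 conventional dendritic cells (cDC2, 129 and 22), neutrophils (27 and 2418), T cells (1173 and 137) and natural killer (NK) cells (205 and 95). The sort could have set these shares. Rankings of levels below cover these classes. Smaller gated classes, such as pericytes (20 and 13 cells), had fewer than 20 cells in at least 1 library and were not ranked. Cells within 1.5 times of the gate numbered 46 and 171 among fibroblasts, 37 and 55 among monocytes, 3 and 40 among neutrophils, 23 and 4 among T cells, 9 and 4 among NK cells and 1 and 6 among endothelial cells. A further 1142 and 1280 cells also passed no gate but were left undecided between marker-negative and gated. The median fibroblast marker level of fibroblast-gated cells was 44760.0 CPM without and 27200.0 CPM with MSA-2, so the range of this class differed between the libraries. In neutrophil-gated cells the median level of their own markers was 30020.0 CPM untreated and 96200.0 CPM after MSA-2, and macrophage markers summed to 1551 and 434 CPM. The neutrophil-gated ratios below thus compare classes of unlike marker content. Median macrophage marker levels within Ly6c2 monocyte-gated cells were 5293 and 2549 CPM. The monocyte gate uses Ly6c2, Ms4a4c and Plac8, which count among the interferon-type genes left out of the clustering. Cells of either library thus entered this class partly through genes of that kind. Ly6c2 stood at 942 and 1074 CPM in the gated class, against 94.2 and 687 CPM in cluster 11. How far the gate shaped the monocyte ratios below was not tested. In NK-gated cells the median level of NK markers was 5279 CPM untreated and 8728 CPM after MSA-2, so the range of this class differed too.

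Neutrophil transcripts were also found outside neutrophil-gated cells. In marker-negative cells, all 12 neutrophil markers were detected in both libraries, with a summed level of 27.0 CPM (led by Mmp9) untreated and 442.9 CPM (led by S100a9) after MSA-2. In fibroblast-gated cells the sum was 56.5 CPM untreated, with Retnlg, Cxcr2 and Ly6g at 0, and 577 CPM after MSA-2, with 12 of 12 detected. NK-gated cells went from 5 of 12 markers and 10.1 CPM to 8 of 12 and 365.6 CPM, with S100a9 at 0 UMIs untreated and leading after MSA-2. Macrophage markers moved the other way, from 723.8 to 215.3 CPM in marker-negative cells, led by Apoe in both. How far transcripts from other cells entered each value was not tested.

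IFITM proteins are small membrane proteins that hinder the fusion of enveloped viruses with cell membranes. Bst2, or tetherin, anchors budding virions to the surface of the infected cell. Ly6a (stem cell antigen Sca-1) and Ly6e are glycosylphosphatidylinositol-anchored surface proteins, known respectively as a marker of stem-like, stromal, endothelial and activated lymphoid cells in mice and as an inhibitor of coronavirus entry. Type I interferon acts through the receptor Ifnar1-Ifnar2 and interferon-gamma through Ifngr1-Ifngr2.

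The 4 Ifitm genes lie on chromosome 7 within 63.1 kb, Ly6a and Ly6e lie on chromosome 15 within 43.0 kb, and Bst2 lies on chromosome 8 (mm10 gene positions). Ifitm2 counts are uncertain, since 22.2% of the 100-base windows in its last 500 bases also occur in Gm45717, Gm8865 or Gm11951, and Gm45717 overlaps it on the same strand. These 3 genes are not among the features counted. No such shared window was found for the other 6 genes. Promoters from 250 bases before to 50 after the transcription start were matched for 5 of the 7 genes in RefSeq (GRCm38.p6). They were searched on both strands for the core letters of interferon regulatory factor sites, AANNGAAA. These letters occur in 23.9% of 32851 mouse promoters of this length.

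The 5 promoters follow, with AANNGAAA matches on either strand in capitals. Ifitm3 held 2 matches, Ifitm6 held 2, Bst2 held 3, of which 2 overlap, and Ifitm1 held 0. A match describes letters in this window and is no evidence of binding. The Ifitm1 and Ifitm6 windows lie inside the mm10 spans of these genes (140967221 to 140969825 and 141015699 to 141017924). Their RefSeq transcription starts thus differ from the ends of those spans.
Ifitm3, chr7:141010695-141010994, minus strand: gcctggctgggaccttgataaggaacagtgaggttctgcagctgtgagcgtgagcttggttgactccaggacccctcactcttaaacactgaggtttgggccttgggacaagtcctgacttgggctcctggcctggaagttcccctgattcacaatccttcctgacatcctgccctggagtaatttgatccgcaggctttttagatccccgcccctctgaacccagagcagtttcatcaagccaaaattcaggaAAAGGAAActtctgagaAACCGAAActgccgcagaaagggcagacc
Ifitm2, chr7:140955912-140956211, minus strand: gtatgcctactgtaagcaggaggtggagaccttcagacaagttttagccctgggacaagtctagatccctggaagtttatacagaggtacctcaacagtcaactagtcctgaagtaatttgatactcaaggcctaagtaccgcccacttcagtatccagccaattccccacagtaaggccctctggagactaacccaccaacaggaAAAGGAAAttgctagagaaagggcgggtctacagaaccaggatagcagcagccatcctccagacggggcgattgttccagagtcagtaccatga
Ifitm1, chr7:140967826-140968125, plus strand: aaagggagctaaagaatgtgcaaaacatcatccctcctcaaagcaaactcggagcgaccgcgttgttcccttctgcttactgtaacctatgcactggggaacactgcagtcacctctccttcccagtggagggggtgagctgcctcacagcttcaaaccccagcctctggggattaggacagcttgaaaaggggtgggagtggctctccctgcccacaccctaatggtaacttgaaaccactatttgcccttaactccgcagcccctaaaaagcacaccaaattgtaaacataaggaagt
Ifitm6, chr7:141016843-141017142, minus strand: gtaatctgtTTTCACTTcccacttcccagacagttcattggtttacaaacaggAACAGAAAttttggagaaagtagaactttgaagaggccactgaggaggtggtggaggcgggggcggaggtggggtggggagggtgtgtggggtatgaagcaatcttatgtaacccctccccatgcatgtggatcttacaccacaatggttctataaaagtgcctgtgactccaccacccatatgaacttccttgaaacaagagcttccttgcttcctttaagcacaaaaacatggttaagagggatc
Bst2, chr8:71537423-71537722, minus strand: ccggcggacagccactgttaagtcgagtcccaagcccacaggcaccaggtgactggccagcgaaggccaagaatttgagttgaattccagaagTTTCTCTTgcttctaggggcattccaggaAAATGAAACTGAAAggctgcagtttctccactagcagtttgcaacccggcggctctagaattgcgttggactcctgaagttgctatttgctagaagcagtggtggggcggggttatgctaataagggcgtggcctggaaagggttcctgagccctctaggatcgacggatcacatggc

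Ifitm2 held 1 match. Promoters with 3 or more matches, as in Bst2, make up 1.12% of the 32851.

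Ifitm3 was the most abundant of the 7 genes in most classes. In the untreated library it reached 1468 CPM in marker-negative, 2308 in fibroblast-gated and 3631 in endothelial-gated cells. Among untreated myeloid classes it stood at 2036 CPM in macrophage-gated, 3232 in Ly6c2 monocyte-gated, 2099 in cDC2-gated and 2365 in neutrophil-gated cells. Lymphoid cells were lowest, at 350.5 CPM in T-gated and 287 CPM in NK-gated cells. After MSA-2 endothelial-gated cells were again the highest of the ranked classes at 6592 CPM, followed by neutrophil-gated cells at 5697 and fibroblast-gated cells at 5372. The few pericyte-gated cells lay above them in both libraries, at 4682 and 7696 CPM. Marker-negative cells were at 2128 CPM, macrophage-gated cells at 3678, monocyte-gated cells at 4150 and cDC2-gated cells at 2471 (22 cells). The T-gated and NK-gated values, 551 and 609.8 CPM, remained the lowest, and their intervals overlapped (494 to 613 and 551 to 674 CPM).

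Every compared class had a higher level of Ifitm3 after MSA-2. The log2 ratio, MSA-2 over untreated, was 1.22 (1.18 to 1.26) in fibroblast-gated, 0.86 (0.79 to 0.93) in endothelial-gated and 0.54 (0.53 to 0.54) in marker-negative cells. Neutrophil-gated cells gave 1.27 (0.97 to 1.58) from 90 untreated UMIs, and monocyte-gated cells 0.36 (0.33 to 0.39). The monocyte value was 1.23 (1.08 to 1.39) when the class was taken from whole clusters. NK-gated and T-gated cells gave 1.09 (0.87 to 1.31) and 0.65 (0.48 to 0.82), and the NK-gated value was 0.87 with equal weight per cell. The fibroblast difference was also seen cell by cell, since the median cell went from 2243 to 5252 CPM and the 10% of cells lowest in Ifitm3 ended at 910.3 and 2723 CPM. At a depth thinned to 1000 UMIs per cell, 82.1% of untreated and 98.5% of MSA-2 fibroblast-gated cells had an Ifitm3 UMI (98.7% and 99.8% before thinning).

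Ifitm2, also a broadly expressed family member, differed less between the libraries than Ifitm3 in the compared classes other than NK-gated cells. There Ifitm3 gave a log2 ratio of 1.09 and Ifitm2 one of 1.22, a difference that was not tested. The untreated level of Ifitm2 was 575 CPM in marker-negative, 882.5 in fibroblast-gated and 919 in endothelial-gated cells, against 542 CPM, 1206 CPM and 1286 CPM after MSA-2. Neutrophil-gated cells had the highest level in either library, 1787 and 1998 CPM. The NK-gated level went from 137 to 319.9 CPM, a log2 ratio of 1.22 (0.91 to 1.54), while T-gated cells had 187 and 199 CPM. Macrophage-gated, monocyte-gated and cDC2-gated cells held 764, 1073 and 752 CPM untreated and 1060.4, 939 and 716 CPM after MSA-2. With the main settings, NK-gated cells were thus the gated class in which Ifitm2 passed 2-fold, and this log2 ratio was 0.88 with equal weight per cell. Ifitm2 also passed 2-fold in neutrophil-gated cells under trimmed-mean (TMM) scaling, at 1.27, against 0.16 without it.

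In marker-negative cells the log2 ratio of Ifitm2 was −0.09 (−0.10 to −0.07), but it was 0.11 within cluster 1, 0.14 within cluster 4 and 0.32 (0.16 to 0.48) within cluster 2. Clusters 1 and 2 held 127 and 25 MSA-2 marker-negative cells, and cluster 4 held 148 untreated ones, so each rests on few cells of 1 library. The cells of clusters 0, 16 and 17 were not compared within a cluster. In monocyte-gated cells it was −0.19 (−0.26 to −0.13), against 0.03 with TMM scaling and 1.09 when the class was taken from whole clusters.

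Ifitm1 had a much narrower distribution. Untreated levels were 4.16 CPM in marker-negative, 6.39 in fibroblast-gated, 3.65 in endothelial-gated and 11.96 in NK-gated cells. By contrast, cDC2-gated and neutrophil-gated cells held 1005 and 1051 CPM, monocyte-gated cells 473, T-gated cells 169 and macrophage-gated cells 51.2. Within T-gated cells, Ifitm1 lay mainly in CD8 cells (232 CPM) and in cluster 10 (281.7 CPM, against 31.0 CPM in cluster 8). The cDC2-gated and neutrophil-gated intervals overlapped in the untreated library (939 to 1074 and 751 to 1431 CPM).

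After MSA-2, neutrophil-gated cells led with 1628 CPM of Ifitm1, followed among the ranked classes by cDC2-gated cells at 663 CPM and monocyte-gated cells at 307. The cDC2-gated value (467 to 913 CPM) rests on 37 UMIs in 22 cells, and only 27.3% of these cells had an Ifitm1 UMI. Of the 22 cells, 16 lay in cluster 11, whose leading genes include monocyte markers, and 4 in cluster 12. The place of cDC2-gated cells in this ranking thus rests on few cells and may not be that of dendritic cells. The 13 pericyte-gated cells held 864 CPM (699 to 1056), against 398.5 CPM in the 20 untreated ones. The levels in T-gated, NK-gated and macrophage-gated cells were 153.6, 83.5 and 66.9 CPM. Fibroblast-gated cells were at 54.2 CPM, endothelial-gated cells at 27.2 and marker-negative cells at 12.96 CPM. Taken as a ratio, the highest of these classes was nearer to the lowest after MSA-2. At 1000 UMIs per cell, 47.6% (25.7% to 70.2%) of untreated and 53.4% (51.4% to 55.4%) of MSA-2 neutrophil-gated cells had an Ifitm1 UMI, against 0.439% and 1.38% of marker-negative cells (median depths 1266, 1829, 21527 and 21111 UMIs). Before thinning these shares were 59.3% and 63.2% of neutrophil-gated and 9.06% and 24.4% of marker-negative cells.

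The classes with low Ifitm1 had the larger ratios. Fibroblast-gated cells gave a log2 ratio of 3.08 (2.42 to 3.83) and marker-negative cells 1.64 (1.503 to 1.78). NK-gated cells gave 2.80 (1.91 to 3.80) from 13 and 53 UMIs, and endothelial-gated cells 2.89 (0.89 to 6.02) from 2 and 25 UMIs. The NK-gated UMIs lay in 2.93% of untreated and 9.47% of MSA-2 cells, so a few cells carry this ratio. The neutrophil-gated ratio was 0.63 (0.18 to 1.12), and −0.06 with marker gates halved. In T-gated cells it was −0.14 (−0.46 to 0.17), an interval that includes 0, and it was 0.05 with equal weight per cell. S100a9, a neutrophil gene, was used as a measure of neutrophil transcripts in the other classes. In the MSA-2 library, Ifitm1 gave 3.39 UMIs per 100 S100a9 UMIs in neutrophil-gated and 6.82 (6.51 to 7.15) in marker-negative cells. It gave 11.3 (7.16 to 17.15) in endothelial-gated, 23.8 (21.5 to 26.3) in fibroblast-gated and 48.6 (34.3 to 68.1) in NK-gated cells.

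Ly6c2 monocyte-gated cells had less Ifitm1 after MSA-2, with a log2 ratio of −0.63 (−0.73 to −0.52). Most of that gap came with cluster 12, whose leading genes are dendritic cell markers such as Ccl17 and Mgl2. Its 66 untreated monocyte-gated cells held 53.5% of the Ifitm1 UMIs of the class at 2062 CPM, and its 16 MSA-2 cells held 24.7% at 5174 CPM. Without cluster 12, an alternative chosen after seeing the data, the levels were 251 and 234.6 CPM and the log2 ratio was −0.10. When the monocyte class was taken from whole clusters instead of gates, the ratio was 4.16, the value of cluster 11, from 2 untreated UMIs. The direction of Ifitm1 in monocytes thus depends on how the class is drawn. The untreated class lay in cluster 7 (74.4%) and the MSA-2 class in cluster 11 (89.1%).

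Ifitm6, a family member known mainly from myeloid cells, was the scarcest of the 7 genes over all cells (1.83 CPM untreated and 27.7 CPM after MSA-2). In the untreated library it reached 52.4 CPM in monocyte-gated and 39.4 CPM in cDC2-gated cells, and 26.3 CPM in neutrophil-gated cells from 1 UMI. Macrophage-gated cells held 3.22 CPM, and marker-negative, fibroblast-gated and T-gated cells held 0.276, 0.337 and 0.233 CPM. Endothelial-gated and NK-gated cells had 0 UMIs, which allows up to 5.48 and 2.76 CPM. After MSA-2, neutrophil-gated cells stood far above the other classes at 742 CPM, with monocyte-gated cells at 102.5 CPM. The remaining MSA-2 levels were 23.6 CPM in macrophage-gated, 17.9 in cDC2-gated, 11.3 in T-gated, 5.43 in endothelial-gated, 5.26 in fibroblast-gated and 4.18 in marker-negative cells, and 0 UMIs in NK-gated cells allowed up to 4.73 CPM.

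The neutrophil-gated log2 ratio of Ifitm6 was 4.82 (2.34 to 10.12), resting on 1 untreated UMI in 27 cells against 3680 UMIs. Monocyte-gated cells gave 0.97 (0.71 to 1.22), and 1.06 without cluster 12. The monocyte class from whole clusters gave 3.74 (1.26 to 9.05), from 1 untreated UMI. Marker-negative cells gave 3.92 (3.44 to 4.44) from 37 and 616 UMIs. The fibroblast-gated and T-gated ratios, 3.97 (1.42 to 9.30) and 5.60 (2.64 to 11.10), each rested on 1 untreated UMI. No ratio is given for endothelial-gated cells, which had 0 and 5 UMIs, or for NK-gated cells, which had 0 in both libraries.

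The Ifitm6 values were also set beside S100a9. Per 100 S100a9 UMIs of the MSA-2 library, Ifitm6 gave 1.546 (1.496 to 1.597) UMIs in neutrophil-gated, 2.20 (2.03 to 2.39) in marker-negative, 2.31 (1.69 to 3.08) in fibroblast-gated and 2.26 (0.727 to 5.36) in endothelial-gated cells. The endothelial interval includes the neutrophil value, and the marker-negative and fibroblast intervals lie above it. Higher ratios were found in monocyte-gated cells, at 31.4 (28.2 to 34.9), and macrophage-gated cells, at 8.86 (7.28 to 10.69). T-gated cells gave 5.04 (1.99 to 10.65), also above the neutrophil value. The source of Ifitm6 UMIs outside the neutrophil gate was not tested. At 1000 UMIs per cell, 36.6% (34.7% to 38.6%) of MSA-2 neutrophil-gated and 8.71% of monocyte-gated cells had an Ifitm6 UMI. The share was 0.491% in marker-negative cells and 0 of 93 NK-gated cells, which allows up to 3.89%.

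**Figure D1:**
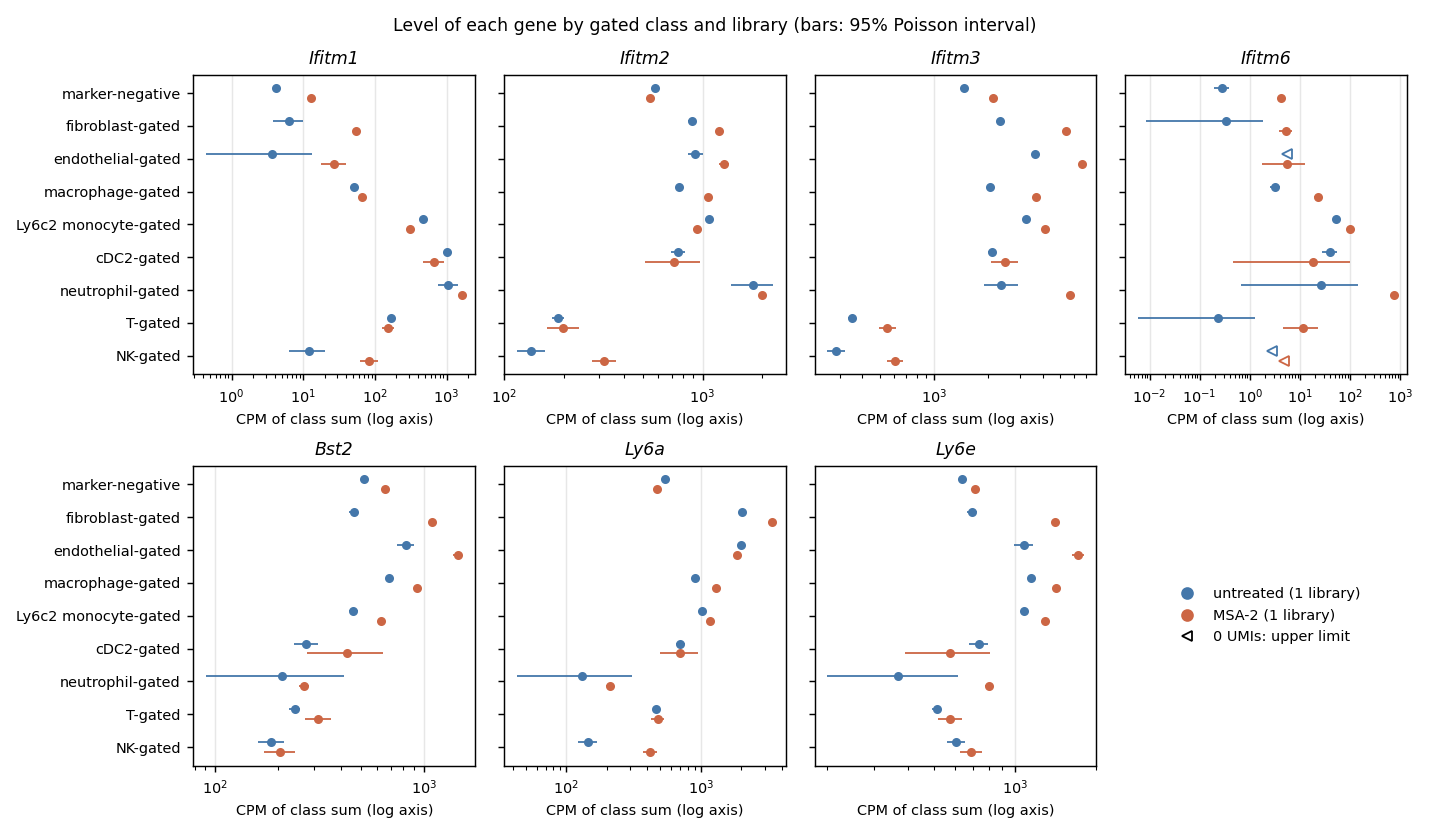
Level of each gene in the gated classes, as CPM of the class sum on a log axis, for untreated (blue) and MSA-2 (red) tumors (1 library each, bars are 95% Poisson intervals, open triangles mark upper limits at 0 UMIs). Ifitm1 and Ifitm6 span the widest range, and after MSA-2 both peak in neutrophil-gated cells (1628 and 742 CPM).

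Bst2 was spread over all classes. Its untreated level was 519.7 CPM in marker-negative, 462 in fibroblast-gated, 824 in endothelial-gated, 679.6 in macrophage-gated and 459.8 in monocyte-gated cells. The lower classes were cDC2-gated, T-gated, neutrophil-gated and NK-gated cells, at 273.5, 240.7, 210.2 and 186 CPM. After MSA-2, endothelial-gated cells held 1454 CPM, fibroblast-gated cells 1096, macrophage-gated cells 929.9, marker-negative cells 651 and monocyte-gated cells 625.5. The cDC2-gated, T-gated, neutrophil-gated and NK-gated levels were 429.8, 314, 268 and 205 CPM. Stromal and endothelial classes thus had the highest Bst2 after MSA-2, and fibroblast-gated cells moved from below marker-negative cells to above them.

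The Bst2 log2 ratio was 1.25 (1.17 to 1.33) in fibroblast-gated and 0.82 (0.66 to 0.98) in endothelial-gated cells. It was 0.44 (0.35 to 0.53) in monocyte-gated, 0.33 (0.31 to 0.34) in marker-negative and 0.38 (0.15 to 0.60) in T-gated cells. The NK-gated value, 0.14 (−0.19 to 0.47), had an interval that includes 0, and it was −0.03 with equal weight per cell. The neutrophil-gated value, 0.35 (−0.63 to 1.57), depended on the setting, with −0.02 for equal weight per cell and 1.46 under TMM scaling. Bst2 UMIs were found at 1000 UMIs per cell in 34.0% (28.0% to 40.5%) of untreated and 61.5% (57.5% to 65.4%) of MSA-2 fibroblast-gated cells.

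Ly6a was high in stromal and endothelial cells. Its untreated level was 2020.1 CPM in fibroblast-gated and 2007 CPM in endothelial-gated cells, values whose intervals overlap. Monocyte-gated, macrophage-gated and cDC2-gated cells held 1019.7, 908 and 707 CPM, and marker-negative cells 542. T-gated cells were at 461 CPM, with 1187 CPM in the 82 regulatory T cells among them against 302 CPM in CD8 cells. NK-gated and neutrophil-gated cells were lowest, at 144 and 131 CPM. After MSA-2 fibroblast-gated cells held 3418 CPM and endothelial-gated cells 1870.4, so that these classes no longer overlapped. The other MSA-2 levels were 1297 CPM in macrophage-gated, 1164 in monocyte-gated, 698 in cDC2-gated, 477 in T-gated, 472 in marker-negative, 419 in NK-gated and 209.6 in neutrophil-gated cells.

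Ly6a did not move in one direction across classes. The log2 ratio was 1.54 (1.25 to 1.83) in NK-gated and 0.76 (0.72 to 0.80) in fibroblast-gated cells. In monocyte-gated cells it was 0.19 (0.13 to 0.25), and in T-gated cells 0.05 (−0.13 to 0.23), with −0.08 for classes from whole clusters. The CD8 cells among the T-gated cells gave 0.41 (0.17 to 0.65). T-gated levels without and with MSA-2 were 243 and 356 CPM in cluster 10, and 726 and 769 CPM, with overlapping intervals, in cluster 8. Endothelial-gated cells gave −0.10 (−0.21 to 0.01), with positive values of 0.06 under TMM scaling, 0.07 with doubled gates and 0.21 with equal weight per cell. Marker-negative cells gave −0.20 (−0.21 to −0.18), but 0.07 (−0.02 to 0.15) within cluster 1, 0.42 within cluster 2, with 25 MSA-2 cells, and 0.85 within cluster 4, where 148 untreated cells met 2725 MSA-2 cells. Neutrophil-gated cells gave 0.67 (−0.55 to 2.30) from 5 untreated UMIs.

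For NK-gated cells the median cell went from 0 to 288.5 CPM of Ly6a. At 1000 UMIs per cell, 18.2% (13.2% to 24.2%) and 23.7% (15.5% to 33.6%) of them had a UMI, intervals that overlap. At 2000 UMIs per cell the shares were 20.9% (15.3% to 27.4%) and 55.2% (44.1% to 65.8%), which do not overlap, and the unthinned shares were 44.4% and 71.6% at median depths of 4851 and 5737 UMIs. Regulatory T cells had a share of 73.2% (62.2% to 82.4%) in the untreated library, and the 8 regulatory T cells of the MSA-2 library were too few to compare.

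Ly6e was the most evenly spread gene. Its untreated levels ran from 368 CPM in neutrophil-gated and 512 CPM in T-gated cells to 1082 CPM in endothelial-gated, 1087 in monocyte-gated and 1155 in macrophage-gated cells. Marker-negative, fibroblast-gated, NK-gated and cDC2-gated cells lay between, at 634.5, 695, 603 and 735 CPM. After MSA-2 the highest levels were 1719 CPM in endothelial-gated, 1426 in macrophage-gated, 1407 in fibroblast-gated and 1298 in monocyte-gated cells. Neutrophil-gated, marker-negative, NK-gated, T-gated and cDC2-gated cells held 801, 714, 690.2, 575 and 573 CPM. Macrophage-gated and fibroblast-gated intervals overlapped there (1393 to 1459 and 1383 to 1432 CPM).

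The Ly6e log2 ratio was 1.02 (0.95 to 1.09) in fibroblast-gated, 0.67 (0.53 to 0.81) in endothelial-gated and 1.12 (0.37 to 1.995) in neutrophil-gated cells. It was 0.26 (0.20 to 0.32) in monocyte-gated, 0.17 (0.16 to 0.18) in marker-negative, 0.19 (0.02 to 0.37) in NK-gated and 0.17 (0.0026 to 0.33) in T-gated cells. For the monocyte class from whole clusters it was 0.96 (0.71 to 1.21). Within clusters 1 and 4 the marker-negative ratio was larger, at 0.54 and 0.50. In fibroblast-gated cells at 1000 UMIs, 42.6% (36.1% to 49.2%) of untreated and 76.0% (72.4% to 79.3%) of MSA-2 cells had a Ly6e UMI.

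Counted together with the main settings, fibroblast-gated cells had the most members at least 2-fold higher after MSA-2 in the gated classes. There, 5 of 7 passed (Ifitm1, Ifitm3, Ifitm6, Bst2 and Ly6e), against 7.5% of all genes with at least 20 UMIs in the class. With gates halved, which widened the class, 2 passed, against 3 in NK-gated and 3 in neutrophil-gated cells. This first place was also lost under TMM scaling, with 5 (10.4% of genes) against 7 in neutrophil-gated cells (14.3%). It was shared with NK cells, at 5 each, when classes were taken from whole clusters. The median log2 ratio of the members was 1.22, and that of all genes tested was −0.17. NK-gated cells had 4 of 7 (Ifitm1, Ifitm2, Ifitm3 and Ly6a) against 5.1% of genes, and 2 with equal weight per cell. Their median was 1.09 over the 7 members, against −0.12 for all genes. Ifitm6, with 0 UMIs in both libraries of this class, entered the member median as unchanged.

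Neutrophil-gated cells had 3 of 7 (Ifitm3, Ifitm6 and Ly6e) against 3.44% of genes, but 7 under TMM scaling, which moved every log2 ratio in this class by 1.11 and brought the share of all genes past 2-fold to 14.3%. Marker-negative cells had 2 of 7 (Ifitm1 and Ifitm6) against 11.3% of genes, and 1 within cluster 4. The same 2 genes passed over all cells, against 11.2%. Endothelial-gated cells had 1 (Ifitm1) against 7.0%, with 3 for doubled gates and 2 under TMM scaling (8.73% of genes) or with doublets kept. In T-gated cells 1 passed (Ifitm6, from 8 UMIs) against 5.57%, and 0 of the 6 members with at least 20 UMIs did. Ly6c2 monocyte-gated cells had 0 of 7 against 10.8% of genes, but 4 when the class was taken from whole clusters (6.88% of genes). They had 1 under TMM scaling (13.8% of genes), with doublets kept, with halved gates or without cluster 12. Their member median was 0.26 and the all-gene median −0.25. No member was 2-fold lower in any compared class or cluster. Of all genes tested, 5.86% were in marker-negative, 10.45% in monocyte-gated and 30.5% in neutrophil-gated cells, and 16.8% in cluster 11. The shares of the other classes and clusters lay between 7.03% and 11.3%, so 0 of 7 is near the share of all genes in most of them. In marker-negative, endothelial-gated and T-gated cells the counts rest on Ifitm1 or Ifitm6, whose levels there were the lowest of the 7 genes.

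TMM scaling moved the log2 ratios by 0.23 in fibroblast-gated, 0.16 in endothelial-gated and 0.22 in monocyte-gated cells. The shift was −0.11 in cluster 5, 0.23 in cluster 6 and 0.43 in cluster 11, and −0.07, 0.04 and 0.04 in marker-negative, T-gated and NK-gated cells. Such a shift is the same for the members and for all genes of a class. It therefore cannot show whether the members' place relative to the all-gene median holds. Without the shift, the fibroblast, endothelial and NK member medians were 1.22, 0.67 and 1.09, against all-gene medians of −0.17, −0.13 and −0.12.

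**Figure D2:**
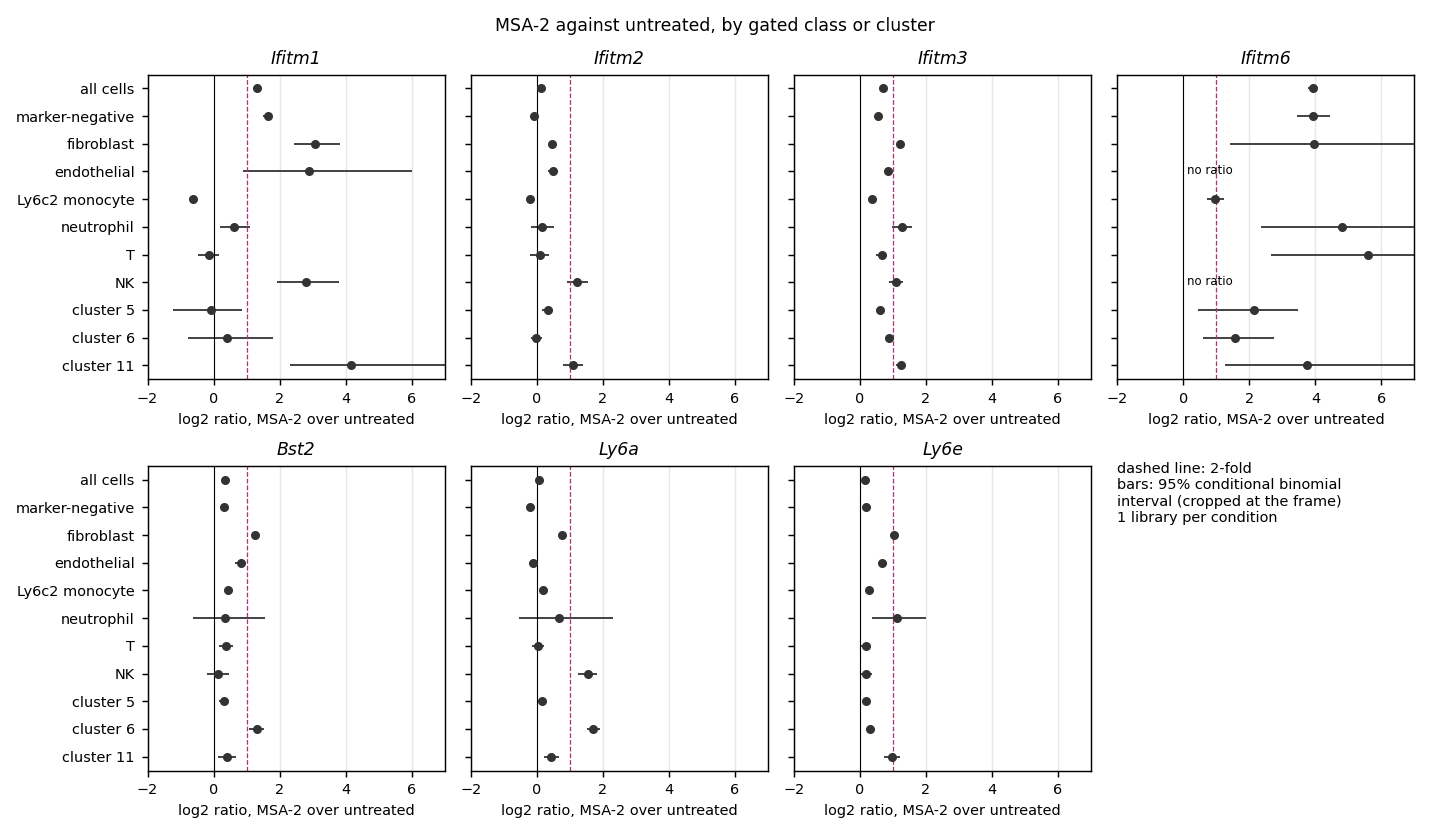
Log2 ratio of each gene, MSA-2 over untreated, over all cells, in the compared classes and in clusters 5, 6 and 11 (bars are 95% conditional binomial intervals, cropped at the frame, and the dashed line marks 2-fold). Fibroblast-gated cells have 5 genes past the line, and Ly6c2 monocyte-gated cells have 0 (4 when taken from whole clusters).

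Macrophage-gated cells were compared by cluster, because 74.0% of the untreated cells lay in cluster 5, led by Apoe and C1q genes, while 70.8% of the MSA-2 cells lay in cluster 11, led by Ifnb1 and monocyte markers such as Chil3 and Ly6c2. The clusters here contain all their cells, 2676 and 90 in cluster 5, 58 and 232 in cluster 6 and 107 and 2026 in cluster 11. In cluster 5, 1 of 7 members was at least 2-fold higher (Ifitm6, from 44 and 5 UMIs) against 8.73% of genes. Its Ifitm3 level went from 1959.7 to 2946 CPM, a log2 ratio of 0.59 (0.50 to 0.67), and the median over the members was 0.31 against 0.0 over all genes.

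In cluster 6, led by genes such as Pf4, Folr2 and Mrc1, 3 of 7 passed (Ifitm6, Bst2 and Ly6a) against 10.3% of genes. Ly6a went from 645 to 2118 CPM (log2 ratio 1.71, 1.53 to 1.91) and Bst2 from 468 to 1161 CPM (1.31, 1.09 to 1.54). Cluster 11 had 4 of 7 (Ifitm1, Ifitm2, Ifitm3 and Ifitm6) against 6.88% of genes, and 2 with the stricter cell filter. Ifitm1 had 2 untreated UMIs there, and its ratio was 4.16 (2.31 to 7.21). Ifitm3 went from 1637 to 3846 CPM (1.23, 1.08 to 1.39). Because clusters were drawn from the same counts, a cluster that is mostly 1 library may be that library and not a type.

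Over all cells, the level of a gene also moves with the class make-up. Ifitm1 went from 28.8 to 72.0 CPM, a log2 ratio of 1.32, but 0.29 when the untreated make-up was kept and 0.81 with the MSA-2 make-up. Ifitm6 had 3.92 over all cells and 2.29 at the untreated make-up. For Ifitm3 the value hardly depended on make-up, 0.69 against 0.61, and Bst2 gave 0.34 against 0.36. Ly6e gave 0.15 and 0.18, Ifitm2 0.12 and 0.05, and Ly6a 0.06 and 0.0038, with −0.09 for Ly6a when cells were weighted equally. Neutrophil-gated cells held 0.758% of the Ifitm1 UMIs without MSA-2 and 58.5% with it. For Ifitm6 these cells held 69.3% of the UMIs after MSA-2, and monocyte-gated cells held 53.7% in the untreated library.

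Ly6a UMIs moved toward the stroma, with fibroblast-gated cells holding 4.89% untreated and 22.8% after MSA-2. These cells held 1.62% and 4.66% of all kept UMIs. Marker-negative cells held 73.1% of all kept UMIs untreated and 76.7% after MSA-2. Their shares of Ifitm2, Ifitm3, Bst2, Ly6a and Ly6e UMIs were below these values in each library, down to 51.8% for Ly6a and up to 74.2% for Bst2, both after MSA-2.

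**Figure D3:**
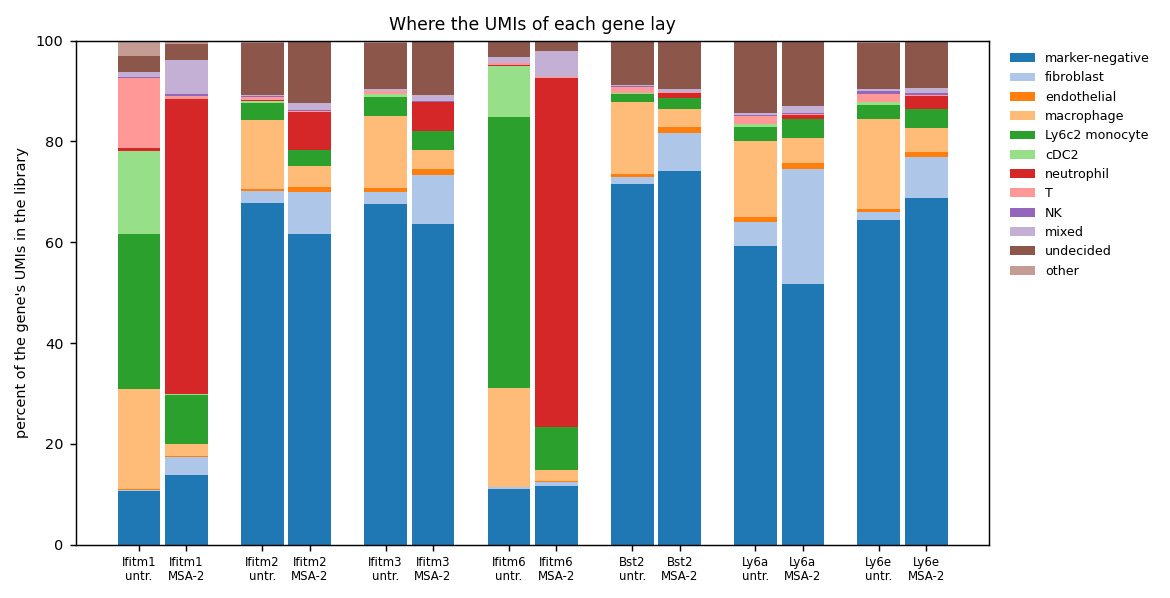
Share of each gene's UMIs, in percent of the library, by gated class (stacked bars, 1 bar per gene and library). The neutrophil-gated part of Ifitm1 goes from 0.758% untreated to 58.5% after MSA-2, a class that holds 0.02% and 2.59% of all kept UMIs.

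Across the 18 class and library sums, which share libraries and depth, the members fell into patterns of likeness. Ifitm2 and Ifitm3 had a Pearson correlation of 0.936 on log2(CPM + 10), each being the most alike of 14213 genes to the other. Next came Tnfrsf1a and Lamp2 for Ifitm2 (0.920 and 0.917), and Tnfrsf1a and App for Ifitm3 (0.927 and 0.922). Ifitm1 was most like Cd80, Il1r2 and Snx20 (0.933, 0.925 and 0.912), and Ifitm6 like Mcemp1, Tarm1 and A530064D06Rik (0.932, 0.931 and 0.923). Bst2 was most like Ctnnd1, Car13 and Iigp1 (0.888, 0.887 and 0.877), Ly6a like Itpripl2, Plod3 and Tulp4 (0.924, 0.891 and 0.889), and Ly6e like Ch25h, Lifr and Lgals3bp (0.887, 0.862 and 0.840). Among the members, Bst2 correlated with Ly6e at 0.827 and with Ly6a at 0.820, and Ifitm1 with Ifitm6 at 0.758, whereas Ifitm1 with Bst2 gave −0.433.

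Other interferon-induced antiviral genes, of which 46 of 47 listed were in the files, showed larger ratios than the members in most classes. In fibroblast-gated cells 41 of 46 were at least 2-fold higher, with a median log2 ratio of 1.88, against 1.22 for the members. In monocyte-gated cells 32 of 46 passed with a median of 1.52, where 0 of 7 members did (4 in the class from whole clusters). Endothelial-gated cells had 37 of 45 and a median of 2.06, against 0.67 for the members. The list medians cover genes with at least 20 UMIs, whereas the member medians cover all 7 genes. In endothelial-gated and NK-gated cells, Ifitm6 entered the member median as unchanged. For marker-negative cells the list gave 29 of 46 and 1.23, for neutrophil-gated cells 32 of 46 and 1.48, for T-gated cells 29 of 45 and 1.46, and for NK-gated cells 23 of 41 and 1.15. No listed gene was 2-fold lower in these classes, where 5.86% (marker-negative) to 30.5% (neutrophil-gated) of all genes tested were. Cluster 11 differed from this order, with 17 of 46 and 0.82 against a member median of 1.09.

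Rsad2, or viperin, shows the contrast in monocyte-gated cells, where it went from 569.6 to 5988 CPM (log2 ratio 3.39) while Ifitm3 gave 0.36. In cluster 11, the class from whole clusters, the contrast was absent, with 1.03 for Rsad2 and 1.23 for Ifitm3. Isg15, a ubiquitin-like modifier, gave 2.51 and the chemokine Cxcl10 2.40 in monocyte-gated cells, against 1.29 and 0.64 in cluster 11. In marker-negative cells Cxcl10 gave 0.55, close to the 0.54 of Ifitm3, Isg15 gave 0.85 and Rsad2 2.34.

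**Figure D4:**
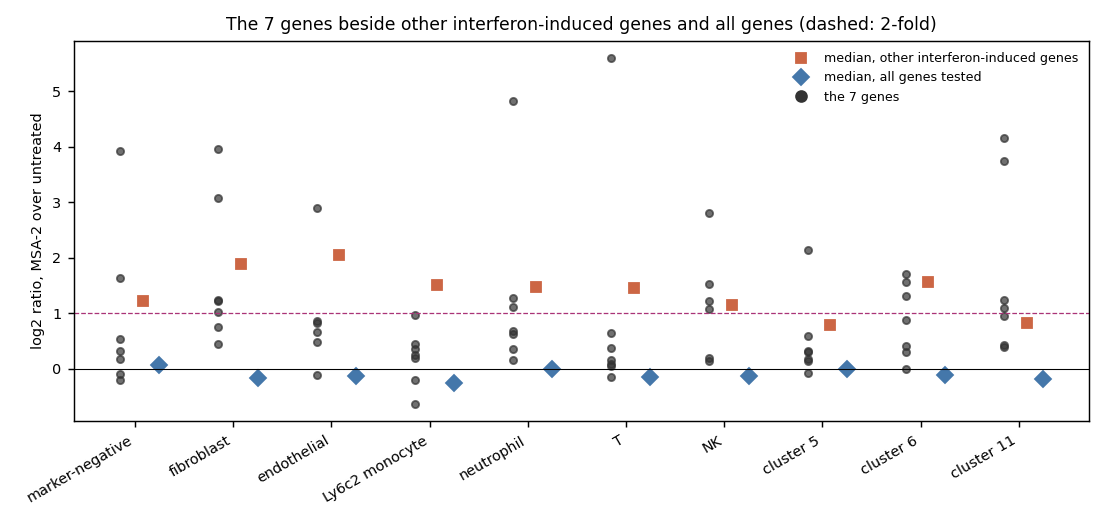
Log2 ratio, MSA-2 over untreated, of the 7 genes (dots) in each compared class and cluster, beside the median of the other interferon-induced genes (squares) and of all genes tested (diamonds), with a dashed line at 2-fold. Ifitm6 has no ratio in endothelial-gated and NK-gated cells. In Ly6c2 monocyte-gated cells every dot lies below the square at 1.52.

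Ifnb1, the type I interferon ligand, gave 18.1 CPM untreated and 2146 CPM after MSA-2 in monocyte-gated cells, a log2 ratio of 6.89. In fibroblast-gated cells, where 5 members passed 2-fold, it went from 3.37 to 136 CPM. Ifna2, Ifna4 and Ifna16 were counted over all cells at 26, 1 and 6 UMIs untreated and 1477, 486 and 547 UMIs after MSA-2. Ifng, made by lymphocytes, went from 739.99 to 3028 CPM in T-gated and from 538 to 1909.8 CPM in NK-gated cells (2.03 and 1.83), but over all cells it was 25.01 and 22.9 CPM (−0.13, −0.19 to −0.07). The receptor genes went the other way in monocyte-gated cells, with log2 ratios of −0.64 for Ifnar1, −0.59 for Ifnar2, −1.46 for Ifngr1 and −1.65 for Ifngr2. Within cluster 11, which holds most MSA-2 cells of that class, Ifnb1 gave 2.06, Ifnar1 −1.04, Ifnar2 −0.19 (−0.59 to 0.24), Ifngr1 −0.13 (−0.79 to 0.61) and Ifngr2 −0.66 (−1.38 to 0.16). Fibroblast-gated cells gave 0.10 for Ifnar1, 0.80 for Ifnar2, −0.69 for Ifngr1 and −0.23 for Ifngr2.

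The relatives of the members outside the group varied in level and in direction. Ifitm5, Ifitm7 and Ifitm10 held 113, 6 and 162 UMIs in all untreated cells and 135, 11 and 159 after MSA-2. Among 24 other Ly6 family genes, 14 had at least 20 UMIs over all cells, 2 were at least 2-fold higher and 5 at least 2-fold lower, where 11.2% and 8.36% of all genes tested were. The neutrophil marker Ly6g went from 1 to 991 UMIs over all cells. Ly6c1, a neighbor family gene of stromal and endothelial cells, went from 599 to 966 CPM in fibroblast-gated cells (log2 ratio 0.69, 0.62 to 0.76), beside 0.76 for Ly6a. In endothelial-gated cells it was −0.37 (−0.56 to −0.18), beside −0.10 for Ly6a. Ly6i gave −2.23 (−2.48 to −1.99) in monocyte-gated cells, but 1.67 (−0.19 to 4.73) in cluster 11, from 2 untreated UMIs. Gpihbp1, the endothelial lipase anchor, gave −1.17 (−1.32 to −1.02) in endothelial-gated cells, where Ly6e gave 0.67.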

How the data were processed

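The authors deposited UMI counts per gene and barcode for each library, made with Cell Ranger against mm10. Version 7.0.0 stands in the submitters' processing notes, beside Seurat 4.3.0, 7.0.1 in the matrix header, and 7.1.0 in the study's methods, beside Seurat 5. The cell filter asked for 500 genes or more and allowed mitochondrial UMIs up to 20%, and doublets called by scanpy 1.11.5 with a rate of 0.8% per 1000 cells (705 and 570 cells, 5.02% and 4.08%) were removed. Cells were gated on summed marker CPM, and thresholds and scoring were set after marker shares had been seen. Clusters came from leidenalg 0.10.2 at resolution 1.0 on 2000 variable genes and 30 components, leaving out interferon-pattern genes. Class sums were compared as log2 ratios of CPM with exact conditional binomial intervals, levels with Poisson and shares with Clopper-Pearson intervals. These ran on scipy 1.17.1, pandas 2.3.3 and numpy 2.4.6 (Python 3.11.15), and figures on matplotlib 3.10.9. TMM factors came from edgeR 4.0.16 in R 4.3.3. A gene counted as tested had at least 20 UMIs in the class over both libraries, and a class or cluster was compared with at least 20 cells in each library. The floor was 3 counts. The calculation was checked on simulated counts.

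Genes were named by a rule: the 7 members in every class, the genes of the interferon, IFITM and Ly6 lists, the 3 most abundant genes of the other lists, and for each member the 3 genes of highest correlation among genes with at least 200 UMIs. Named list genes are a selection from these lists, and the interferon relay list is not reported here. The members and lists were chosen with earlier results of these data known. The cDC2 class was not compared, because 16 of its 22 MSA-2 cells lay in cluster 11. Alternatives covered the cell filter, doublets, class definition, gates, scaling, cell weighting, S100a8 and S100a9 share, fold, UMI minimum, thinning depth and class make-up.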

Additional observations from a re-analysis of the deposited data

Results flagged for a closer look

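Ifitm1 had opposite directions in 2 classes, with a log2 ratio of 3.08 in fibroblast-gated and −0.63 in Ly6c2 monocyte-gated cells. The difference was not tested, and the monocyte value was −0.10 without cluster 12. With the class taken from whole clusters it was 4.16 (2.31 to 7.21), the direction of fibroblast-gated cells, but from 2 untreated UMIs in 107 cells. Ifitm2 was likewise higher after MSA-2 in NK-gated cells (1.22) and lower in Ly6c2 monocyte-gated cells (−0.19), a difference that was not tested, with a monocyte value of 0.03 under TMM scaling and 1.09 for the class from whole clusters, the direction of NK-gated cells. Ly6a stood at 1.54 in NK-gated and −0.20 in marker-negative cells. This difference was not tested either, and the marker-negative value was 0.07 within cluster 1, 0.42 within cluster 2 and 0.85 within cluster 4.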

How the results depend on the processing

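Of 540 member ratios recomputed under alternatives, 514 kept their sign, and of 175 recomputed from ratios past 2-fold, 161 stayed past it, with 0 changing direction. Of 103 recomputed counts of members at least 2-fold higher, 83 were within 1.5 times of the reported count. The others were as follows, and the cause was not tested. The share of all genes is given where it was counted under the same setting. Without it, a changed count cannot be read as more or fewer members standing out. The stricter cell filter gave 1 over all cells and 2 in cluster 11. Keeping doublets gave 2 in endothelial-gated and 1 in monocyte-gated cells. Classes from whole clusters gave 4 in monocytes (6.88% of genes). Doubled gates gave 3 in endothelial-gated cells, and halved gates 2 in fibroblast-gated and 1 in monocyte-gated cells. TMM scaling gave 2 in endothelial-gated (8.73% of genes), 1 in monocyte-gated (13.8%) and 7 in neutrophil-gated cells (14.3%). Equal weight per cell gave 2 in NK-gated cells. A fold of 1.5 gave 4 in endothelial-gated, 1 in monocyte-gated, 5 in neutrophil-gated and 2 in T-gated cells and 2 in cluster 5. Requiring 20 UMIs gave 0 in T-gated cells. Chosen after seeing the data, cluster 4 alone gave 1 in marker-negative cells, and leaving out cluster 12 gave 1 in monocyte-gated cells. With the MSA-2 class make-up held fixed, the all-cell log2 change was 0.81 for Ifitm1, 0.66 for Ifitm3, 3.505 for Ifitm6, 0.38 for Bst2, 0.028 for Ly6a and 0.22 for Ly6e. The neutrophil-gated class gave no value with the stricter filter, which left fewer than 20 cells in a library. No paired analysis was possible because each condition had 1 library.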
